A study of Mus musculus with 2 samples.

Results

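The 7 genes described here encode stefin and cystatin protease inhibitors and were followed through the leukocytes of pressure-overloaded mouse hearts. They are the stefin A-type genes Stfa1, Stfa2, Stfa3, Stfa2l1 and Cstdc4, the stefin B gene Cstb and the cystatin C gene Cst3. They were chosen by symbol, and all 7 were found among the 31192 genes of a single-cell transcriptome matrix of 878 cells. The cells came from hearts of Cdh5-CreERT2;REFLEX mice that received tamoxifen and underwent transverse aortic constriction (TAC), an operation that narrows the aorta and overloads the left ventricle. Cdh5-CreERT2 is a tamoxifen-inducible Cre recombinase driven by the promoter of an endothelial cadherin, and in the REFLEX reporter, per the labels, GFP marks cells that had interacted. The CD45+ and CD45- cells, each with and without GFP, were sorted into 4 fractions and pooled before 1 transcriptome library and 1 hashtag library were made. All cells therefore carried the same genotype and the same operation, and unoperated hearts, the number of mice, their age and their strain are not part of what was analysed here. Cell names carry 1 of 4 tag names (A951, A952, A953, A965) or the word doublet, and no source used here ties a tag name to a sorted fraction or an animal.

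Stefins are small cytosolic proteins that block cysteine proteases of the cathepsin type by wedging into the active site. Mice carry a cluster of stefin A-type genes, known for their abundance in neutrophils and in surface epithelium, whereas stefin B is made by most cells. Cystatin C belongs to the same superfamily but carries a signal peptide and is secreted, and it can act on cathepsins outside the cell and in the endosomal system. The members' targets, the lysosomal cathepsins, take part in protein breakdown and antigen processing in phagocytes.

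Of the 878 cells, 857 passed the filters on counts, genes and mitochondrial share. Depth ran between 28407 and 706332 estimated counts per cell, with a median of 77171. Clustering without the members gave 11 clusters, and 10 of them met the markers of a leukocyte type. They held 268 neutrophil-like, 185 monocyte-like, 160 B cell-like, 103 T cell-like, 54 macrophage-like, 32 conventional dendritic-like and 27 NK cell-like cells, beside 28 cells of an unnamed cluster. No cluster was named after endothelial cells, fibroblasts or cardiomyocytes. The neutrophil-like cells fell into a cluster of 110 cells with the higher Icam1 level, led by Gpr84, Icam1 and G0s2, and a cluster of 158 cells led by Ngp, Retnlg and Camp. The monocyte-like cells comprised a classical cluster of 93 cells, a patrolling cluster of 80 cells and a cluster of 12 cells led by the interferon-induced genes Ifit1, Ifit3 and Isg15, which met 3 classical monocyte markers. Levels are given in CPM, the gene's counts summed over the cells of a class for each 1000000 counts of those cells. With 1 library there was no replicate, so no p-value is given, and the 95% intervals cover counting error alone. Where the deposited values count reads rather than molecules, which the sources used here do not settle, these intervals are too narrow. Counts were not divided by gene length, so a level is compared between cells and not between genes.

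The stefin A-type genes lie in a cluster on chromosome 16. Some of them are near-identical in sequence to another gene of the cluster, which bears on their values below. In the RefSeq order the locus runs Csta1, Stfa2l1, Cstdc4, Csta3, Csta2, Stfa1, Cstdc3, Cstdc6, Cstdc5, Gm7260, Stfa2 and Stfa3, so 5 members are interleaved with 7 relatives. Cstb lies on chromosome 10 and Cst3 on chromosome 2. The closest coding sequence to Cstdc4 was that of the neighbouring Csta2, 96.9% identical. Stfa1 was 97.9% identical to Cstdc5 and 94.2% to Cstdc6, and Stfa2 was 96.4% identical to Stfa2l1. The other pairs of stefin A-type members were 74.8% to 81.6% identical, whereas Cstb was 55.4% to 62.7% and Cst3 46.2% to 49.5% identical to the stefin A-type members. Coding stretches of the 3 closest pairs, from GENCODE M21 transcripts, are shown because a read that falls inside the capitals, the longest run the pair shares, cannot be assigned to one gene of the pair. The first pair covers coding bases 50 to 223, the second 121 to 288 and the last 73 to 209, counted from the start codon.
Cstdc4: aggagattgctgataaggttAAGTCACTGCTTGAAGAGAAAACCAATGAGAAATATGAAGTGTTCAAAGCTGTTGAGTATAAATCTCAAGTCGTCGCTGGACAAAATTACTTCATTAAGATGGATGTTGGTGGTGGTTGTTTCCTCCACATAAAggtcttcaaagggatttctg
Csta2: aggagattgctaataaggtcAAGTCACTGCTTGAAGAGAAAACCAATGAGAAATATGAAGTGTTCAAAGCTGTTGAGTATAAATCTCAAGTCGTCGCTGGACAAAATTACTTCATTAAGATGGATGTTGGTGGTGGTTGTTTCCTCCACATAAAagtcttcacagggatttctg
Stfa1: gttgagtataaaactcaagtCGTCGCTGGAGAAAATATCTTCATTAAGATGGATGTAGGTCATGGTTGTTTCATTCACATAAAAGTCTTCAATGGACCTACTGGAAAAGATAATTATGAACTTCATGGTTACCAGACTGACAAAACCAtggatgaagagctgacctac
Cstdc5: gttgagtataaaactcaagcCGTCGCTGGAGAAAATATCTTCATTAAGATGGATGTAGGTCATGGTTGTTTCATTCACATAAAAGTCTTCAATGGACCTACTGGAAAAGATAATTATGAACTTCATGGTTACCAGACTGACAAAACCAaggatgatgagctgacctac
Stfa2: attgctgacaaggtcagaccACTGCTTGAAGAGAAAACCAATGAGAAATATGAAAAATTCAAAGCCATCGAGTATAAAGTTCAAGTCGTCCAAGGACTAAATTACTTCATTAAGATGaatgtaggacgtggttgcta
Stfa2l1: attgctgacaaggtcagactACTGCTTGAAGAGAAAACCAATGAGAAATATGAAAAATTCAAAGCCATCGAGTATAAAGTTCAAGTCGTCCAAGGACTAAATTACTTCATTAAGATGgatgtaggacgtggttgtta

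The capitals span 134 bases in the first pair, 128 in the second and 97 in the last. Counted over all windows of 50 bases in the longest transcript, 35.6% of those of Cstdc4 (130 of 365) were also in Csta2, and 23.1% of those of Stfa1 (131 of 568) were also in Cstdc5. Stfa1 shared 11.3% of its windows with Cstdc6. Stfa2 shared 14.7% of its windows with Stfa2l1, and these made up 16.8% of the windows of Stfa2l1. No other pair of the 7 members shared a window, and Stfa3, Cstb and Cst3 shared none with any gene compared. By sequence, then, the overlap lay mainly between a member and a relative outside the list, and between members only for Stfa2 and Stfa2l1.

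The stefin A-type members are alike at the start of their genes as well as in their coding sequence. The 150 bases before the start are shown for the 5 members (RefSeq, GRCm38.p6), since the 5 genes were counted in the same class of cells, and capitals mark the only C/EBP-type motif found in these 5.
Stfa1: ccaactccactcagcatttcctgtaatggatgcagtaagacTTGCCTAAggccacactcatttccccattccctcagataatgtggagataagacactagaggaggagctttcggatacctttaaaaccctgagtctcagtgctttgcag
Stfa2: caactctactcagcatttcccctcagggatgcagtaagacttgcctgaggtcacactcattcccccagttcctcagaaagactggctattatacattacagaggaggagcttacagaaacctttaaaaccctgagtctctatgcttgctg
Stfa3: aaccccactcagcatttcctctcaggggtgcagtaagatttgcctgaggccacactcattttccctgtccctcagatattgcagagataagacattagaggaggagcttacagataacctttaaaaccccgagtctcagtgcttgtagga
Stfa2l1: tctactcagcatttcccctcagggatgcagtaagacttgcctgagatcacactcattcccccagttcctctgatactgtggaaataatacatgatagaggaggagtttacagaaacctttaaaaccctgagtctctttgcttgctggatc
Cstdc4: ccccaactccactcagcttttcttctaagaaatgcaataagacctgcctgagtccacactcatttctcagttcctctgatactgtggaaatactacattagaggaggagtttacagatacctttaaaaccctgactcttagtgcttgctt

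The intervals and strands are chr16:36276998-36277147 (+) for Stfa1, chr16:36408364-36408513 (-) for Stfa2, chr16:36455393-36455542 (-) for Stfa3, chr16:36156661-36156810 (+) for Stfa2l1 and chr16:36184062-36184211 (+) for Cstdc4, each read 5′ to 3′ on the gene's strand. Over 300 bases (250 before to 50 after the start), Stfa2 and Stfa2l1 were 90.5% identical, the other pairs among Stfa1, Stfa2, Stfa3 and Stfa2l1 79.2% to 81.0%, and Cstdc4 68.5% to 74.5% to those 4. Cst3 was 40.2% to 44.6% identical to them, and Cstb was not in the table of promoters. The motif TTGCNNAA of C/EBP factors, searched on both strands, was found in Stfa1 alone of the 6 members with a promoter, 109 bases before the start, and in 10.8% of all 32851 promoters of that length. The relatives Csta3 and Cstdc5 hold it too, 156 and 88 bases before the start. The PU.1 motif GAGGAAGT was in none of them and in 3.20% of all promoters. A match in these letters describes the window and shows no binding.

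The deposited values include fractions, which is what splitting a read between several matching genes would leave, although no source used here gives the authors' rule. Counting each value more than 0.001 from a whole number, 93.9% of the counts of Stfa1 and 93.6% of those of Cstdc4 sat in such values. Stfa2l1 had 32.3% of its counts in such values. Cstb had 3.25%, Cst3 4.56%, Stfa2 0.287% and Stfa3 0.197%. Over all values above 0 in the matrix the share was 38.8%. By cells instead of counts the shares were lower, at 26.9% of the 78 cells with Stfa1, 26.8% of the 183 with Cstdc4 and 9.23% of the 195 with Stfa2l1, beside 30.1% of all values above 0 and 14.5% for the median gene. Fractions were more frequent in cells with 10 or more counts, in 12 of 19 cells for Stfa1 and 45 of 63 for Cstdc4. The distances to the nearest whole number summed to 4.57 counts of 6596 for Stfa1, 4.35 of 15146 for Cstdc4 and 0.647 of 11718 for Stfa2l1. These sums are lower limits on what was divided, since fractions can also add up to a whole number.

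Adding up relatives recovered whole numbers in part of the cells for the pairs tried that share windows of 50 bases. It did so in no cell for Cstdc4 with Stfa2l1 or Stfa1 with Cstdc4, which share none. The sum of Cstdc4 and Csta2 was whole in 42 of the 49 cells with a fraction in Cstdc4, within 0.002, and the sum of Cstdc4 and Stfa2l1 in 0 of 49. For Stfa1, adding Cstdc6 made 9 of 21 cells whole and adding Cstdc5 as well made 18 of 21, while adding Cstdc4 made 0 of 21. Adding Stfa2l1 made 3 of 6 fractional cells of Stfa2 whole. For the 18 cells with a fraction in Stfa2l1 itself, no single partner was tried. The sum of the 5 members was whole in 2 of the 72 cells with a fraction in one of them, and that of the 5 members with Cstdc5, Cstdc6, Csta2 and Csta3 in 50 of 72. These 4 relatives were brought in after the values were seen. The levels of Cstdc4 and Stfa1 are thus uncertain by what they share with Csta2, Cstdc5 and Cstdc6. Rounding every fraction down moved the log2 ratios below by less than their counting intervals. With whole-number values alone, the log2 ratio of neutrophil-like over other cells was 4.96 for Stfa1, against 9.42 with all values, and 3.56 for Cstdc4, against 8.22. Between the neutrophil states it was -0.38 for Stfa1 on those values, short of the size rule.

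**Figure D1:**
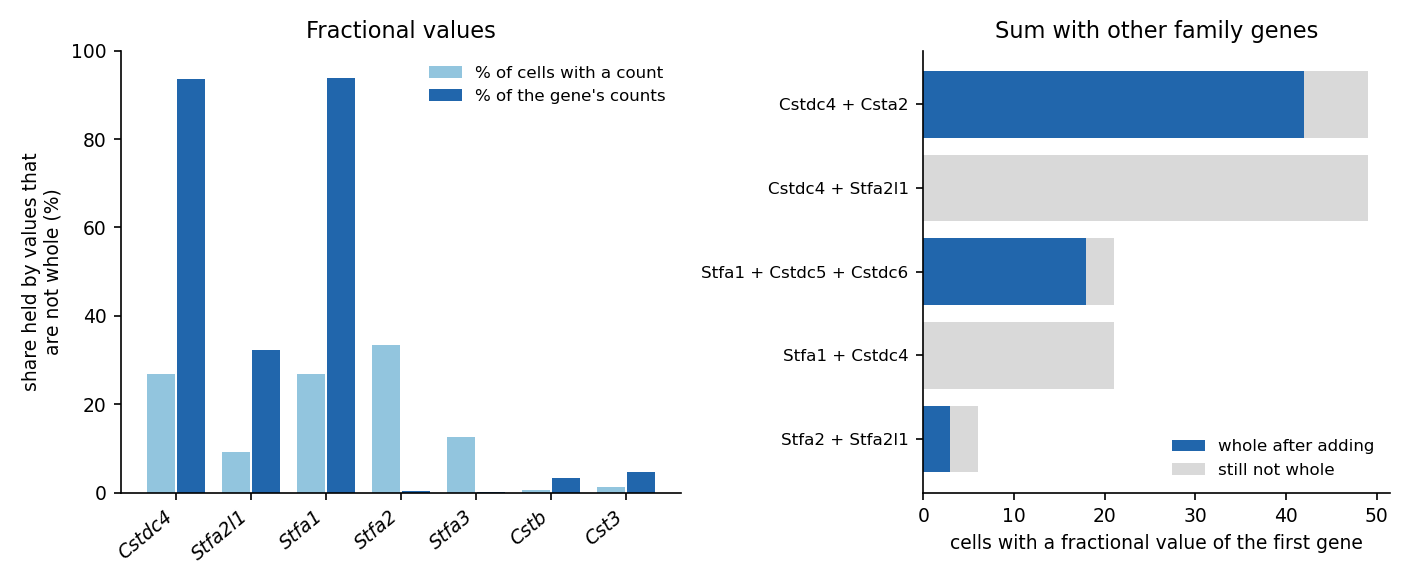
Left, share (%) of each gene's cells with a count (light bars) and of its counts (dark bars) held by values that are not whole numbers. Right, number of cells with a fractional value of the first gene whose value was whole (blue) or still not whole (grey) after the named genes were added. Stfa1 (93.9%) and Cstdc4 (93.6%) have nearly all counts in such values although 26.9% and 26.8% of their cells do, and 42 of 49 cells became whole when Csta2 was added to Cstdc4.

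The stefin A-type members were counted almost entirely in neutrophil-like cells. Their summed level was 1805 CPM (95% interval 1786 to 1825) in neutrophil-like cells and 8.52 CPM (7.91 to 9.18) in all other kept cells, a 212-fold ratio (197 to 229). Of 34094 stefin A-type counts, 97.9% lay in neutrophil-like cells. All 5 members passed the size rule for higher, at least 50 counts and a log2 ratio of at least 1, a rule that 10.9% of the 18243 genes with enough counts met, while 42.9% met the rule for lower, a log2 ratio of at most -1. Their median log2 ratio was 8.22, beside -0.68 over all those genes. The next level, 14.3 CPM in the unnamed cluster, did not differ from 12.9 CPM in monocyte-like cells beyond its interval. Then came T cell-like cells with 7.74 CPM, macrophage-like cells with 6.63, conventional dendritic-like cells with 4.36, B cell-like cells with 2.72 and NK cell-like cells with 2.04. Neighbours in this lower order overlapped within counting error, apart from monocyte-like over T cell-like cells and macrophage-like over conventional dendritic-like cells. These exceptions rest on few cells. A single macrophage-like cell held 59 counts, and a monocyte-like cluster of 12 cells stood at 161 CPM against 2.11 and 2.43 CPM in the other monocyte-like clusters. Under 18 other settings the log2 ratio of the sum, 7.73 as reported, lay between 5.98 (whole-number values alone) and 8.87 (cells named A965).

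Each stefin A-type member followed that pattern. Cstdc4 stood at 807 CPM in neutrophil-like cells and 2.70 CPM in the other cells, a 299-fold ratio (261 to 342), and Stfa2l1 at 613 and 4.56 CPM, a 135-fold ratio (121 to 150). Stfa1 had 354 CPM in neutrophil-like cells and 0.518 CPM in the others, 684-fold (501 to 935). In cells named A953, none of the 19 neutrophil-like cells had a Stfa1 count. Under the 18 other settings the log2 ratio lay between 1.82 and 11.82 for Stfa1 and between 3.56 and 9.32 for Cstdc4, with a side without counts set at 3 counts. The Stfa1 value of A953 was therefore set by that floor and shows no direction. Other A953 cells did hold Stfa1 counts, at 0.335 CPM in monocyte-like and 1.93 CPM in conventional dendritic-like cells. Cstdc4, Stfa2l1 and Stfa1 gave 44.7%, 34.0% and 19.6% of the stefin A-type counts of neutrophil-like cells, before any division by length. Stfa2, with 1.12% of those counts, had 20.2 CPM in neutrophil-like cells and 0.0489 CPM in the others (ratio 414, 161 to 1531). Stfa3, with 0.596%, had 10.8 CPM and 0.701 CPM (ratio 15.4, 11.3 to 20.8). Elsewhere its counts lay mostly in 1 T cell-like cell, which held all 53 Stfa3 counts of its class. Without the highest cell on each side the log2 ratio of Stfa3 was 6.38, against 3.94 with all cells, and that of Stfa2l1 7.95 against 7.07. The values of Stfa2 and Stfa3 rest on few cells, since 14 and 9 neutrophil-like cells had any count of them.

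**Figure D2:**
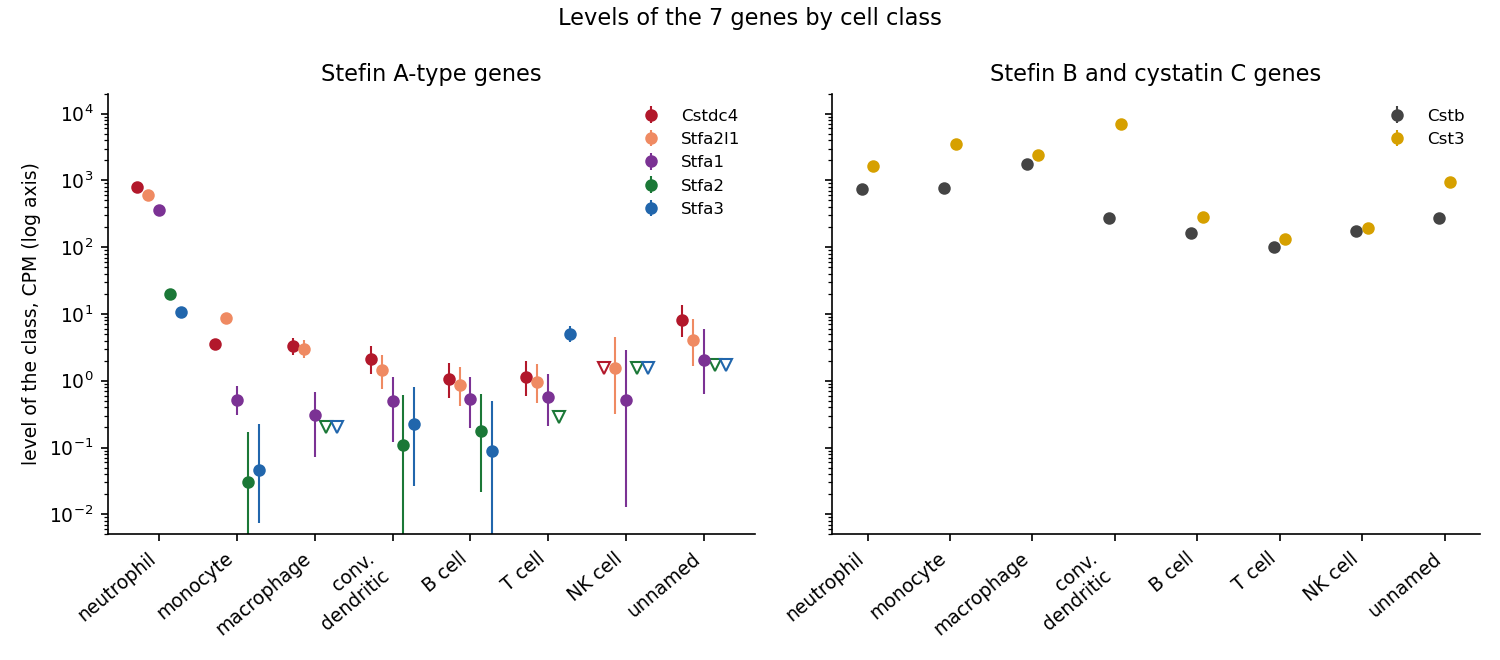
Level (CPM, log axis) of the 5 stefin A-type genes (left) and of Cstb and Cst3 (right) in each class of cells, with 95% Poisson intervals for counting error; an open triangle marks a class with 0 counts, drawn at the 3-count floor. Every stefin A-type gene is highest in neutrophil-like cells, Cstdc4 at 807 CPM there, whereas Cstb peaks in macrophage-like and Cst3 in conventional dendritic-like cells.

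Within the neutrophil-like class the stefin A-type counts were unevenly spread over cells. Of 268 cells, 105 had no count of any of the 5 genes, 37 had some but fewer than 10 counts, 60 had 10 to under 100 and 66 had 100 or more, among them 16 with 500 or more. The quartiles of the summed level per cell were 0, 30.7 and 1387 CPM, and the highest cell reached 34594 CPM. The 14 highest cells held 50% of all stefin A-type counts of the class. Cstb and Cst3 were spread more evenly in the same cells, with 32 and 55 cells holding 50% of their counts. Stefin A-type counts were above 0 in 60.8% of neutrophil-like cells (interval 54.7% to 66.7%, median depth 64299 counts), beside 16.3% of B cell-like cells at a median depth of 67466 and 20.4% of T cell-like cells at 87657. With every cell thinned to 25000 counts the share was 52.2% in neutrophil-like cells and 7.47% in all other kept cells.

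The counts of the genes did not spread alike over cells. With 10 counts as the limit, 143 neutrophil-like cells reached it for none of the 5 genes, 69 for 1 gene, 44 for 2, 9 for 3 and 3 for 4, and no cell for all 5. Stfa2l1 reached the limit in 107 cells and in 52 of them alone. Cstdc4 reached it in 60 cells, 47 of which also passed for Stfa2l1. Stfa1 passed in 19 cells, 17 of them with Stfa2l1, and Stfa2 in 7 cells, 6 of them with Stfa2l1. Stfa3 passed in 3 neutrophil-like cells, none of which passed for Stfa1, Stfa2l1 or Cstdc4. The Pearson correlation of log-scaled levels over the 268 cells was 0.54 for Stfa2l1 with Cstdc4, 0.34 for Stfa2 with Cstdc4 and -0.04 for Stfa3 with Stfa2l1, as a description of cells that share 1 library and differ in depth.

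Single cells decided the levels of the rarer genes. The 3 highest cells of Stfa1 together held more than 50% of its neutrophil counts, with 1728, 1327 and 762 counts, and the first of them 26.4%. Stfa2 had its highest values of 114, 89 and 62 counts in 3 cells, and Stfa3 had 114, 44 and 27 counts in 3 cells, the first of which held 57.3% of the class total. For Stfa2l1, by contrast, 21 cells were needed to reach 50% of the counts, and for Cstdc4 9 cells.

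**Figure D3:**
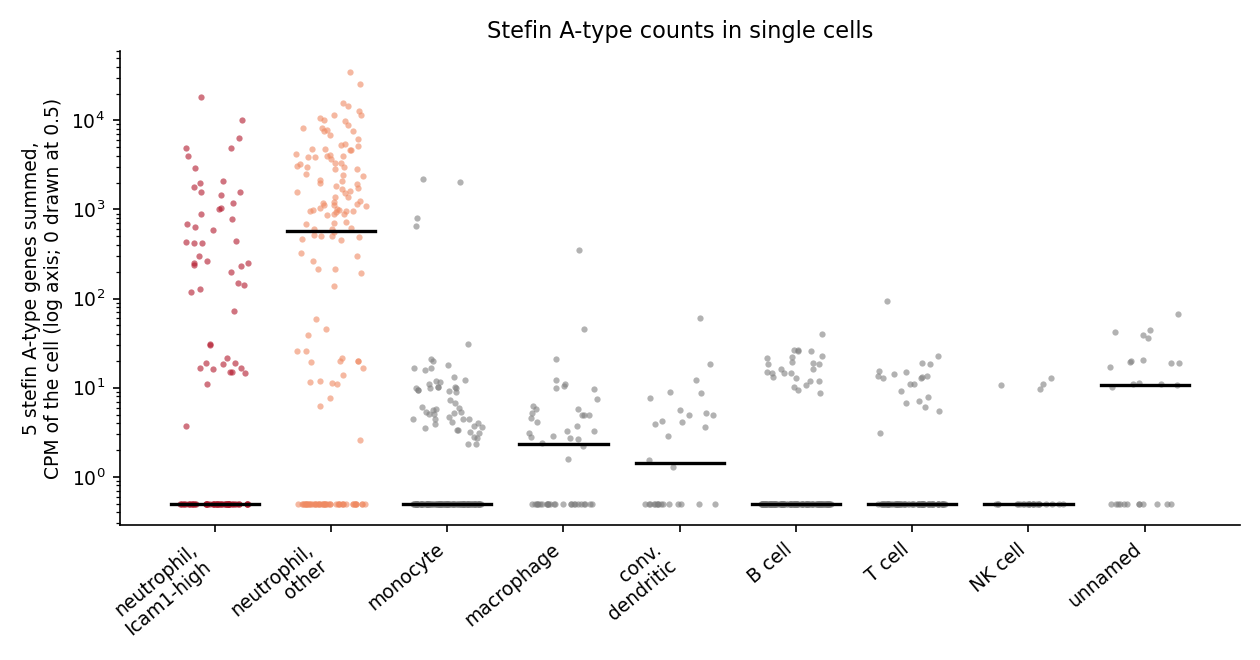
Summed level of the 5 stefin A-type genes in each kept cell (CPM, log axis, cells at 0 drawn at 0.5) for the Icam1-high neutrophil-like cluster, the other neutrophil-like cells and the other classes, with medians as black lines. The median is 0 CPM in the Icam1-high cluster and 580 CPM in the other neutrophil-like cells, and single monocyte-like, macrophage-like and T cell-like cells stand above their classes.

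Outside the neutrophil-like class, 6 of 589 cells had 10 or more stefin A-type counts. Of these, 4 lay in the 12-cell cluster led by interferon-induced genes, with 181, 65, 57 and 48 counts, 1 was macrophage-like with 59 and 1 T cell-like with 54. That cluster stood at 161 CPM, against 2.11 CPM in the classical and 2.43 CPM in the patrolling monocyte-like cluster. Its neutrophil markers, all 12 above 0, summed to 10816 CPM (178 to 118992 CPM over its cells), whereas the classical and patrolling clusters had 2273 and 1523 CPM and the neutrophil-like class 108849 CPM. Of these 4 cells, 2 carried the name doublet. The cell with 181 counts was named A951 and had 13982.5 CPM of Retnlg, beside 10119 CPM in the neutrophil-like class. The cells with 65, 57 and 48 counts had 2241, 1101 and 110 CPM of Retnlg. The part of neutrophil RNA in the stefin A-type level of this cluster was not tested. Without the cluster the log2 ratio of neutrophil-like over other cells was 8.70, against 7.73 with it, an alternative added after the data were seen. The highest cell of a class weighed heavily outside the neutrophil-like class, with 43.0% of the counts among monocyte-like cells, 59.9% in macrophage-like cells and 66.7% among the T cell-like ones.

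Between the neutrophil states, stefin A-type counts were lower in the Icam1-high cluster and Cstb and Cst3 were higher there. The stefin A-type sum was 722 CPM (702 to 742) in the Icam1-high cluster and 2483 CPM (2454 to 2512) in the other neutrophil-like cells, a ratio of 0.291 (0.282 to 0.299) or -1.78 in log2. No stefin A-type count was found in 59 of 110 Icam1-high cells and in 46 of 158 other neutrophil-like cells, and 34 of 110 against 92 of 158 cells had 10 or more. The median cell had 0 CPM in the Icam1-high cluster and 580 CPM among the others. All 5 stefin A-type members passed the size rule for lower, which 11.4% of 9661 genes met, and Cstb and Cst3 passed it for higher, which 26.8% met. The median log2 ratio of the 5 was -2.52, with Stfa3 at its bound, beside 0.32 over all those genes. The log2 ratio of the sum lay between -2.85 (cells named A953) and -1.16 (cells named A965) under the settings that gave a value.

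Stfa2l1 had 313 CPM in the Icam1-high cluster and 801 CPM in the other neutrophil-like cells (log2 ratio -1.36), and Cstdc4 had 316 and 1114 CPM (-1.82). Stfa1 had 90.5 CPM in the Icam1-high cluster, 80.0% of it in 1 cell, and 519 CPM in the others (-2.52). Without the highest cell on each side the log2 ratio of Stfa1 was -4.34. Stfa2 was found in 1 Icam1-high cell, at 2.25 CPM, against 31.5 CPM in the others (-3.81). Stfa3 had no count in the Icam1-high cluster and 17.5 CPM in the others, 41.5-fold the level that 3 counts would give over the cluster. The counting interval of the fold reached down to 33.4. The ubiquitous inhibitor Cstb ran the other way, with 1133 CPM in the Icam1-high cluster and 511 CPM in the other neutrophil-like cells (ratio 2.22, 2.14 to 2.29). Its median cell had 695 CPM in the Icam1-high cluster and 55.4 CPM among the others. The secreted inhibitor Cst3 had 2400 CPM and 1158 CPM (ratio 2.07, 2.03 to 2.12), with medians of 2011 and 885 CPM per cell. Cst3 was above 0 in 109 of 110 Icam1-high cells and in 156 of 158 others, so its difference lay in level and not in the number of cells with a count.

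The directions of the pooled levels held within the tag names for the sum, Cstb and Cst3. In cells named A951 the stefin A-type sum was 690 CPM in the Icam1-high cluster and 2000 CPM in the other neutrophil-like cells, and in A952 it was 920 and 4239 CPM. In A953 it was 256 and 1846 CPM, in A965 819 and 1828 CPM, and in cells named doublet 499 and 2472 CPM. Cstb was higher in the Icam1-high cluster in all 5, between 487 and 1899 CPM there and between 302 and 652 CPM in the others. Cst3 was higher in all 5 as well, between 1533 and 3171 CPM in the Icam1-high cluster and between 834 and 1294 CPM in the others. The A953 and A965 values rest on 5 and 9 Icam1-high cells. By the median cell, Cstb and Cst3 held as well, but the sum did not in cells named doublet. Their median cell had 118 CPM of the sum in the Icam1-high cluster and 32.6 CPM in the others. Of these doublet cells, 7 of 13 against 7 of 16 had 10 or more counts of the sum, and in A953 3 of 5 against 8 of 14. Single genes did not all hold. Cells named A951 had 181 CPM of Stfa1 in the Icam1-high cluster and 69.1 CPM in the others, and cells named A965 had 498 CPM of Cstdc4 in the Icam1-high cluster and 410 CPM in the others.

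Other features moved with this split. Median depth was 59505 counts in the Icam1-high cluster and 67263 in the others, and the median mitochondrial share 2.43% and 1.91%. All 8 cardiomyocyte markers were above 0 on both sides, summing to 220 CPM in the Icam1-high cluster (0 to 2236 per cell, above 0 in 99 of 110 cells) and 132 CPM in the others (0 to 3250, 134 of 158 cells). Their part in the result was not tested. The neutrophil alarmin S100a9 had 16456 CPM in the Icam1-high cluster and 54100 CPM in the others, and set against it the stefin A-type sum differed less, at 4.38 counts (4.26 to 4.51) per 100 S100a9 counts in the Icam1-high cluster and 4.59 (4.54 to 4.64) in the others. Per 100 counts of S100a8, its partner, the sum was 3.20 and 4.18. Against the granule protein gene Retnlg it was 52.3 per 100 counts in the Icam1-high cluster and 15.9 in the others. S100a9, S100a8 and Retnlg are among the markers used for naming and were not withheld from the clustering. The B, T and NK cell-like cells together held 4.32 stefin A-type counts per 100 S100a9 counts (3.55 to 5.20), but the T cell-like cells alone held 5.93 (4.68 to 7.43) and the B cell-like cells 2.72 (1.84 to 3.89). Per 100 Retnlg counts the neutrophil-like class held 17.8 and these lymphocyte classes together 31.6 (25.4 to 39.0). A single T cell-like cell held 54 stefin A-type counts at 6.99 CPM of Retnlg. The T cell-like and pooled lymphocyte values rest heavily on that cell and were not computed without it.

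**Figure D4:**
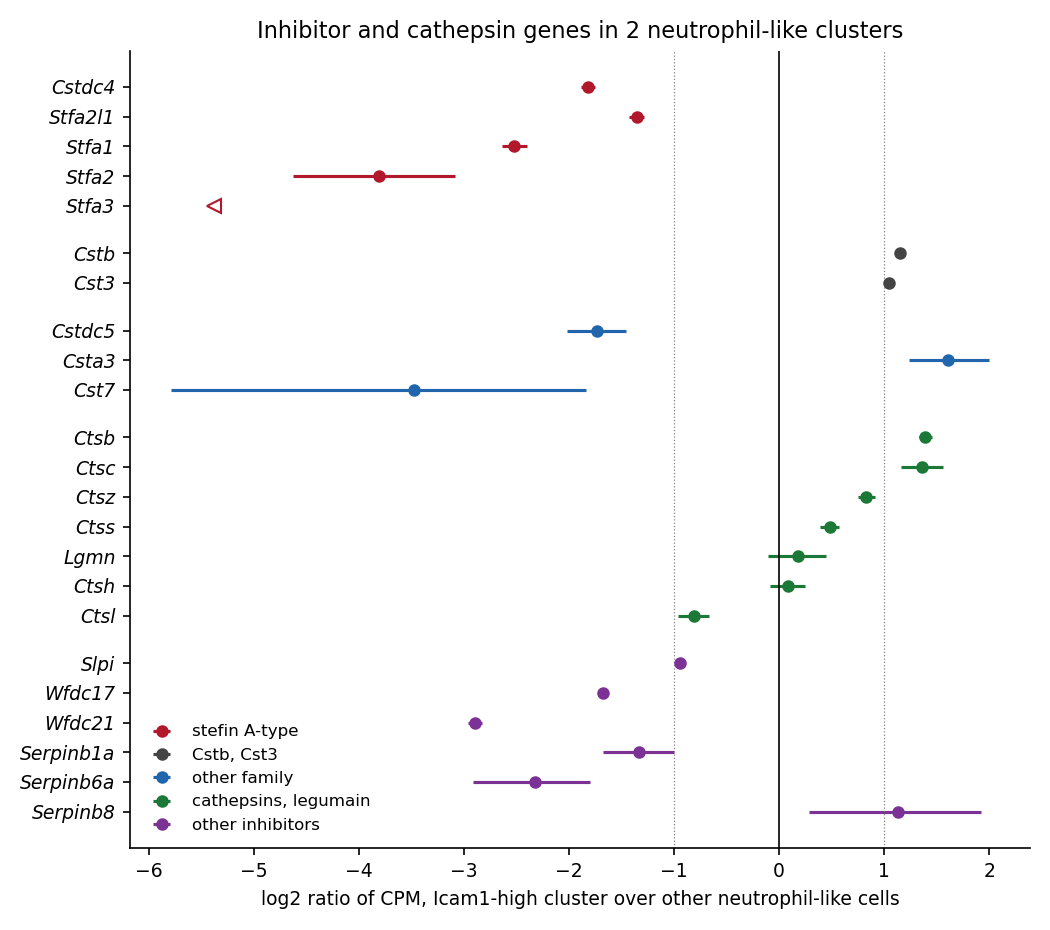
Log2 ratio of CPM, Icam1-high cluster over the other neutrophil-like cells, of the members, other family genes, cathepsins with legumain and other protease inhibitors that had enough counts, with 95% counting intervals; dotted lines mark -1 and 1, and an open triangle for Stfa3 marks a bound at 3 counts. The stefin A-type members lie below -1 and Cstb (1.15) and Cst3 (1.05) just above 1. The Cst7 value rests on 1 cell, which held 99.1% of its counts in the other neutrophil-like cells.

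Cstb, the cytosolic stefin B, was found in every leukocyte class with its highest level in macrophage-like cells. These had 1741 CPM (1720 to 1763), followed by monocyte-like cells with 768, neutrophil-like cells with 750, conventional dendritic-like cells with 277, the unnamed cluster with 271, NK cell-like cells with 174, B cell-like cells with 164 and T cell-like cells with 102 CPM. Macrophage-like cells stood 2.27-fold (2.23 to 2.31) above monocyte-like cells, which stood 1.02-fold (1.00 to 1.04) above neutrophil-like cells. The dendritic-like and unnamed cells, and the NK and B cell-like cells, did not differ beyond counting error. All 54 macrophage-like cells had a Cstb count, with quartiles of 730, 1171 and 1955 CPM per cell. The monocyte-like clusters differed among themselves, at 967 CPM in the classical and 233 CPM in the patrolling cluster, with medians of 746 and 16.6 CPM per cell. The interferon-led cluster had a median of 586 CPM per cell. Neutrophil-like cells had 750 CPM against 697 CPM in all other cells, a log2 ratio of 0.11, which is neither higher nor lower by the size rule. This value turned to -0.21 with whole-number values alone and reached 0.94 in cells named A965. Macrophage-, monocyte- and dendritic-like cells together, the mononuclear phagocytes, had 945 CPM against 400 CPM in all other cells (ratio 2.36, 2.32 to 2.40).

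Cst3, which encodes the secreted cystatin C, was highest in conventional dendritic-like cells and patrolling monocyte-like cells. The dendritic-like cells had 7045 CPM, monocyte-like cells 3552, macrophage-like cells 2410, neutrophil-like cells 1636, the unnamed cluster 941, B cell-like cells 285, NK cell-like cells 191 and T cell-like cells 131 CPM, and each step exceeded its counting interval. The mononuclear phagocytes together had 3811 CPM and all other cells 837 CPM, a ratio of 4.55 (4.50 to 4.60) or 2.19 in log2, which lay between 1.37 (cells named A952) and 3.48 (cells named A953) under the other settings. Neutrophil-like cells had 1636 CPM and all other cells 2707 CPM, a log2 ratio of -0.73 that is neither higher nor lower by the rule. In this comparison Cstb and Cst3 passed the size rule for higher, which 12.0% of 18243 genes met, and the 5 stefin A-type members passed it for lower, which 23.5% met. Among monocyte-like cells the patrolling cluster had 6248 CPM, the interferon-led cluster 3277 CPM and the classical cluster 2485 CPM, with medians of 4973, 2492 and 2275 CPM per cell. The patrolling cluster was thus the highest of the 3 for Cst3 and the lowest for Cstb, for which the classical and interferon-led clusters did not differ beyond counting error. All 54 macrophage-like and all 32 dendritic-like cells held 10 or more Cst3 counts, whereas 71 of 160 B cell-like and 26 of 103 T cell-like cells did.

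Counts of Cst3 per count of Cstb also differed between the classes. The ratio was 26.9 (25.7 to 28.1) in the patrolling cluster and 25.4 (24.4 to 26.5) in dendritic-like cells. It was 3.43 in the interferon-led cluster, 2.57 in the classical cluster and 1.38 in macrophage-like cells. The Icam1-high neutrophil-like cluster had 2.12 (2.06 to 2.17) and the other neutrophil-like cells 2.27 (2.20 to 2.34), so this ratio differed less between the neutrophil states than either gene did. B, T and NK cell-like cells had 1.74, 1.29 and 1.10. Over the 268 neutrophil-like cells the correlation of the log-scaled levels of Cstb and Cst3 was -0.02, and over all 857 cells it was 0.28.

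The dendritic-like level of Cst3 came mostly from a few cells with counts of Clec9a, a lectin receptor that marks cross-presenting dendritic cells. This split was chosen after the values were seen. The 8 dendritic-like cells with a Clec9a count had 14159 CPM of Cst3 (6014 to 22974 per cell, median 12920), and the 24 without had 3013 CPM (439 to 12986, median 2164), a ratio of 4.70 (4.62 to 4.78). The ranges overlapped. These 8 cells gave 72.7% of the Cst3 counts of the class, and the 4 highest, which hold 50%, all had a Clec9a count. Cells with a Clec9a count were deeper, at a median of 398173 counts against 234238. Cstb did not follow, with 267 CPM in the cells with and 283 CPM in those without a Clec9a count. Clec9a was above 0 in 21 of the 857 cells, 13 of them outside the dendritic-like class.

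**Figure D5:**
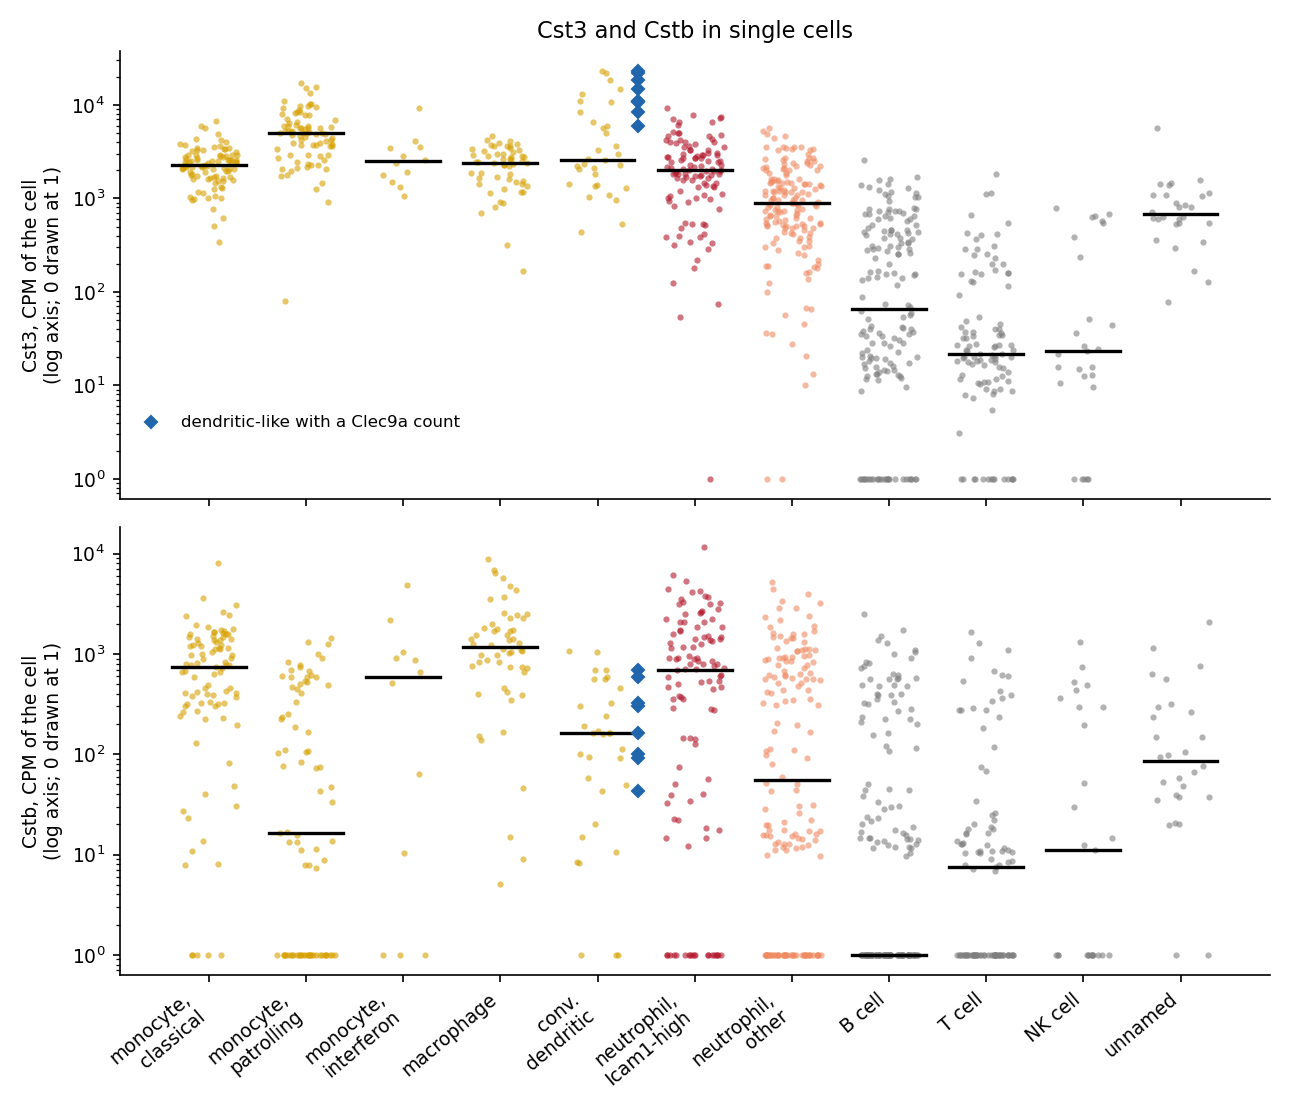
Level per cell (CPM, log axis, cells at 0 drawn at 1) of Cst3 and Cstb by class or cluster, with medians as black lines; blue diamonds repeat the 8 dendritic-like cells with a Clec9a count. The patrolling cluster has the highest median of Cst3 (4973 CPM) and a low median of Cstb (16.6 CPM), and the diamonds lie at the top of the dendritic-like cells for Cst3.

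The proteases that these inhibitors act on were distributed otherwise than the stefin A-type genes. Of 11 cysteine cathepsins and legumain, none was higher in neutrophil-like cells than in the others, 10 were lower and 1, Ctsz, was neither, with a median log2 ratio of -3.40, beside 42.9% lower and a median of -0.68 over all genes. The lysosomal endopeptidase genes Ctsb and Ctss stood at 426 and 208 CPM in neutrophil-like cells and at 1404 and 1902 CPM in the others, and Lgmn, an asparaginyl endopeptidase that cystatin C also inhibits, at 24.5 and 501 CPM. In the mononuclear phagocytes 7 of the 11 were higher, as were 12.0% of all genes, and Ctsf, Ctsk and Ctsw were lower, the first 2 named after their values were seen, with a median log2 ratio of 2.50 beside -0.25 over all genes. Those higher were Ctsb (1968 against 268 CPM), Ctss (2600 against 293 CPM), Lgmn (687 against 62.2 CPM), the dipeptidyl peptidase gene Ctsc (689 against 67.6 CPM), Ctsh (569 against 101 CPM), Ctsl (399 against 69.5 CPM) and Ctsz (559 against 192 CPM). Macrophage-like cells, first in Cstb, had 3012 CPM of Ctsb, 1491 of Lgmn and 882 of Ctsl, whereas dendritic-like cells, first in Cst3, had 1722 CPM of Ctss and 707 of Ctsh but 368 of Ctsb and 32.4 of Ctsl. Ctsw, a cathepsin of cytotoxic lymphocytes, had 592 CPM in NK cell-like and 82.1 CPM in T cell-like cells, and 0.378 CPM in neutrophil-like cells.

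Between the neutrophil states, 7 cathepsin and legumain genes had enough counts, and 2 were higher in the Icam1-high cluster, none lower and 5 neither. Their median log2 ratio was 0.48, beside 26.8% higher and a median of 0.32 over all genes. The higher ones were Ctsb, with 688 CPM in the Icam1-high cluster and 262 CPM in the others, and Ctsc, with 72.7 and 28.3 CPM. Ctsz had 361 and 203 CPM and Ctss 253 and 181 CPM, neither past the rule, and Ctsl 72.2 and 127 CPM.

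Other inhibitor and state genes give the setting of the stefin A-type values. Of 9 serpin and WAP-type inhibitors of leukocyte proteases, 6 had enough counts between the neutrophil states. In the Icam1-high cluster 4 were lower, 1 higher and 1 neither, beside 11.4% lower and 26.8% higher over all genes. Serpinb1a and Serpinb6a were among the lower ones and Serpinb8 was the higher one, named after their values were seen. Wfdc17 had 4014 CPM in the Icam1-high cluster and 12857 CPM in the others, Wfdc21 286 and 2128 CPM, and Slpi, an inhibitor of neutrophil elastase, 3091 and 5938 CPM, short of the rule. Granule genes were lower for 8 of 12, beside 11.4% over all genes, and higher for 2, beside 26.8%. These 2 were Chil3 and Mpo, likewise named after the fact. Within the clusters the stefin A-type sum went little with the granule list. Its Spearman correlation with that list was 0.06 over the 110 Icam1-high cells and 0.19 over the 158 other neutrophil-like cells. The lower ones included Retnlg with 1380 CPM in the Icam1-high cluster and 15583 CPM in the others, Ngp with 5.76 and 2345 CPM and the lysozyme gene Lyz2 with 1065 and 2406 CPM. Activation genes were higher for 9 of 12 and lower for none, beside 26.8% higher and 11.4% lower over all genes. The cluster was picked by Icam1 and is led by Gpr84 and Icam1, which are on this list. This count therefore describes the cluster and is no independent result. Icam1, which named the cluster, had 1018 CPM there and 103 CPM in the others, the NF-kappaB inhibitor gene Nfkbia 5587 and 2644 CPM, and the chemokine gene Ccl3 2328 and 903 CPM. The chemokine gene Cxcl2 had 20102 and 12475 CPM and did not pass the rule.

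Of the 24 other family genes listed, 11 were in the matrix and 4 had enough counts for the neutrophil comparison. Cst7, the gene of cystatin F, an inhibitor found in the endolysosomes of cytotoxic cells, was the reverse of the stefin A type, with 3.05 CPM in neutrophil-like cells and 17.8 CPM in the others. It had 211 CPM in NK cell-like, 53.5 CPM in T cell-like and 45.4 CPM in dendritic-like cells. Between the neutrophil states Cst7 had 0.422 CPM in the Icam1-high cluster and 4.70 CPM in the others, where 1 cell held 99.1% of the counts. Without the highest cell on each side the levels were 0.285 and 0.0455 CPM, from 2 and 0.5 counts, so no direction is read. The stefin A relatives are named here after their values were seen, because they share reads with the members. Cstdc5 had 42.3 CPM in neutrophil-like cells and 0.357 CPM in the others, and 17.4 CPM in the Icam1-high cluster against 57.9 CPM in the other neutrophil-like cells. Of the Cstdc5 counts, nearly all in the Icam1-high cluster and 51.0% in the others lay in 1 cell each, and without the highest cell on each side the levels were 0.00145 and 28.6 CPM. Csta3 had 14.0 CPM in neutrophil-like cells and 0.0131 CPM in the others, and 23.9 CPM in the Icam1-high cluster against 7.83 CPM in the other neutrophil-like cells. The Csta3 values rest on 4 Icam1-high cells, 1 of which held 65.9% of the counts, and on 5 other neutrophil-like cells, and without the highest cell on each side they were 8.21 and 3.902 CPM. Csta2, the partner of Cstdc4, had 2.32 CPM in neutrophil-like cells and 2.19 CPM in the others. It was above 0 in 53 of 268 neutrophil-like cells and in 33 of 589 others, where 1 cell held 59.5% of the counts, and without the highest cell on each side the levels were 1.30 and 0.889 CPM. These levels without the highest cells were added after the data were seen.

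Tag names did not differ alike for all members. In neutrophil-like cells the stefin A-type sum was 1460 CPM in A951, 2771 CPM in A952, 1492 CPM in A953, 1562 CPM in A965 and 1722 CPM in cells named doublet. Stfa1 ranged more widely, with 115, 908, 0, 666 and 116 CPM in the same order, while Stfa2l1 lay between 445 and 802 CPM. The median mitochondrial share of the neutrophil-like cells also differed, at 4.15% in A951, 0.850% in A952, 0.433% in A953, 0.759% in A965 and 3.53% in cells named doublet, and its part in these levels was not tested. Cst3 of neutrophil-like cells lay between 1115 and 1941 CPM and that of monocyte-like cells between 2832 and 4275 CPM. Cstb of monocyte-like cells was 1367 CPM in A952 and between 321 and 712 CPM in the others. The median monocyte-like cell did not stand out, with 354 CPM in A952 and between 130 and 431 CPM in the others. In A952 alone, the log2 ratio of Cstb in neutrophil-like over all other cells was -0.75, against 0.11 over all cells.

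The genes whose level over the 857 cells was most like a member's differed between members. For Stfa2l1 these were S100a9 (Pearson correlation of log-scaled levels 0.58), S100a8 (0.57) and Retnlg (0.56), and for Cstdc4 the same 3 genes at 0.44, 0.43 and 0.43. Stfa1 was most like Wfdc21 (0.29), Retnlg (0.26) and S100a8 (0.25). Stfa2 was most like Gm5527 (0.42), 4933439K11Rik (0.40) and Gm34983 (0.32), and Stfa3 most like Tmem45a (0.46), Svep1 (0.42) and Ppp1r13l (0.39), both members resting on few cells. Cst3 was most like Fcer1g (0.68) and Tyrobp (0.64), adaptor genes of myeloid receptors, and the antioxidant enzyme gene Gpx1 (0.64). Cstb was most like Ftl1 (0.40), a ferritin light chain gene, Grik3 (0.38) and Fcer1g (0.38). These correlations compare 16358 genes in 1 library and describe cell types as much as genes.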

How the data were processed

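The series held 2 samples, a transcriptome library and a hashtag library of the same pooled cells. Cells were captured with the BD Rhapsody system and amplified with TAS-Seq, per the labels' protocols. The submitters' processing notes name cutadapt 4.1, STARsolo 2.7.10b, STAR, R 4.3.1 and the genome build GRCm39, without roles or settings. The authors deposited the transcriptome matrix as estimated counts, a gene in each line and a cell in each column, many of them fractions, and no source used here says whether reads or molecules were counted. The hashtag table as deposited by the authors holds whole-number counts of 11 tags over 1000000 barcodes, and all 878 cell barcodes were found in it; it was used for that check alone.

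A cell was kept from 500 counts and 200 genes upward, with a mitochondrial share of up to 25%. They were scaled to 10000 counts, log-transformed and clustered with scanpy 1.11.5 (igraph 0.11.9) on 2000 variable genes, 30 components, 15 neighbours and Leiden resolution 1, with 58 listed genes left out, the members, their families and the cathepsins among them, and 5 listed genes that are cell type markers kept. A cluster was named when at least 3 markers of a type reached 50 CPM and 2-fold over the other cells. No doublet caller was run; the 46 kept cells named doublet were kept and left out as an alternative. Estimated counts were summed as deposited, and CPM carry exact Poisson and ratios exact Clopper-Pearson intervals at 95% (SciPy 1.17.1). Higher or lower means at least 50 counts over both sides and a log2 ratio of at least 1 or at most -1, which is a rule of size and no test. The ratio step was run on simulated Poisson counts drawn from pooled gene means. Such counts follow the model of the intervals, so this run cannot show how they behave where few cells hold most counts. No p-value was computed because 1 library gives no replicates.

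The members, the gene lists and the tests were chosen with earlier results of these data known. Genes named are the members, family, cathepsin and legumain genes with at least 50 CPM in a class of at least 25 cells, up to 3 genes each of the granule, activation and serpin lists with the highest neutrophil levels, Icam1, and the 3 genes most like each member among those above 0 in at least 5% of cells. Genes outside this rule (Ctsf, Ctsk, the stefin A relatives, some granule and serpin genes) were named after their values were seen. Promoters are from RefSeq (GRCm38.p6) and transcripts from GENCODE M21, so sequence positions and counts stem from different builds. Proteins were not used here. Results were recomputed under 17 other settings and 1 more added after the data were seen, as were levels of the stefin A relatives and Cst7 without the highest cell.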

Additional observations from a re-analysis of the deposited data

How the results depend on the processing

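Log2 ratios are given in the order stefin A-type sum of neutrophil-like over all other cells (7.73), the sum in the Icam1-high cluster over the other neutrophil-like cells (-1.78), Cstb of neutrophil-like over other cells (0.11) and Cst3 of mononuclear phagocytes over other cells (2.19). Rounding fractions down and leaving the members out of the total moved all 4 by less than their counting intervals. A mitochondrial limit of 10% gave 8.84, -2.62, 0.028 and 2.28. Cells named doublet left out gave 8.74 for the first, 0.017 for Cstb and 2.32 for Cst3. Whole-number values alone gave 5.98, -1.46, -0.21 and 2.25, so Cstb turned. Weighting cells alike gave 6.88 for the first, 0.82 for Cstb and 1.97 for Cst3. Leiden resolution 0.5 gave 8.72 for the first and 2.14 for Cst3, and with 1 neutrophil-like cluster it gave no value for the states; resolution 1.5 gave 6.63, 0.14 for Cstb and 1.996 for Cst3. With 3000 variable genes the first 2 were 8.73 and -2.49, with 30 neighbours they were 8.72 and -1.85 with Cst3 at 2.14, with the members kept in the clustering 7.46 and -2.19, and without the highest cell on each side 8.04 and -2.09. A minimum of 40000 counts gave 8.71, -2.01 and, for Cst3, 2.23. By tag name the values were 7.22, -1.53, 0.024 and 1.80 in A951, 8.30, -2.20, -0.75 and 1.37 in A952, and 8.87, -1.16, 0.94 and 3.14 in A965. In A953 they were -2.85, 0.052 and 3.48 for the last 3. Cstb turned in A952. Leaving out the cluster led by interferon-induced genes gave 8.70 for the first. Beside these 4 results, 242 values of single members were recomputed under these settings, with a side without counts set at 3 counts. Of these values, 240 kept their sign. For Stfa1 in A953, the sign in neutrophil-like over other cells came from that floor, since those neutrophil-like cells held no count. The values that turned, in the Icam1-high comparison, were 1.39 for Stfa1 in A951 and 0.28 for Cstdc4 in A965. The causes of these shifts were not tested.

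With 1 library, intervals cover counting error alone and the spread between animals is unknown. Stfa2 and Stfa3 rest on 14 and 9 neutrophil-like cells, and Stfa1 in the Icam1-high cluster on 1 cell for 80.0% of its counts. Cstdc4 and Stfa1 share stretches of sequence with relatives, so some of their reads can match those as well. In the dissociated and pooled cells, class levels weigh deep cells more than shallow ones. No paired analysis was possible because the transcriptome is 1 library and the result comes from no test.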
